A study of Mus musculus with 12 samples.

Results

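CD4-CD8 double-negative thymocytes that carry the NHD13 transgene and lack Lyl1 were compared with double-negative thymocytes of wild-type mice. The comparison used 6 of the 12 arrays of the series: the 3 arrays of the NHD13 transgenic Lyl1 knockout and wild-type replicates 1 to 3, which were taken as controls because the scatter of their undetected probes is closest to that of the knockout arrays. Of 45281 probes on the array, 18391 were detected (p-value below 0.05) on 3 or more of the 6, and they read 9677 named genes. All mice were on C57 BL/6 and 2 to 3 months old, and about 300 ng of total RNA from sorted cells of the thymus went onto each Illumina MouseWG-6 v2.0 array.

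The knockout group carries both the transgene and the loss of Lyl1, and no group analysed here lacks Lyl1 without the transgene, so a change against wild type cannot be divided between the 2 alleles. The NHD13 group (3 arrays, transgene with intact Lyl1) and wild-type replicates 4 to 6 served as a second, separate pair, and the change in the knockout group was set against the change in NHD13 without any shared control array. The labels do not say whether the arrays of a group came from different mice, so p-values measure the spread between these samples, which may be technical. In sorted bulk RNA, fewer cells of a type and less RNA per cell cannot be told apart.

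NHD13 is the fusion of NUP98 with the homeobox gene HOXD13, known from human myeloid leukaemia, and in mice it is expressed across blood cells from Vav1 regulatory sequence. NUP98 fusions are known for keeping HOXA-cluster genes on in cells that would normally silence them. LYL1 is a basic helix-loop-helix factor that partners E proteins and works with LMO2 in blood stem cells and early progenitors, and it normally falls as thymocytes commit to the T lineage. Double-negative thymocytes pass through this commitment and, at the DN3 stage, recombine the T cell receptor beta locus with RAG1 and RAG2 and test it with the pre-T cell receptor alpha chain, Ptcra.

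Lyl1 itself was at 4.75, 4.73 and 4.68 (log2 normalized signal) on the 3 knockout arrays, against 7.34, 7.05 and 7.21 on wild-type replicates 1 to 3. No knockout array detected it and every wild-type array did, so the labels held for the targeted gene, and the level was at least 3.49-fold lower (log2 change -2.48, SE 0.16, limma adjusted p = 0.0042). In NHD13 it stood at 11.18, 11.19 and 11.10, against 7.37, 7.39 and 6.79 in wild-type replicates 4 to 6. NHD13 cells with intact Lyl1 had a higher Lyl1 signal than their own controls (log2 change 3.97, limma adjusted p = 3.1e-06), and the knockout arrays lay below both wild-type sets.

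Several properties of the 6 arrays bear on every value. The SD of the log2 signal over undetected probes was 0.039 to 0.046 on the knockout arrays and 0.052 to 0.067 on wild-type replicates 1 to 3, against 0.085 to 0.086 for NHD13 and 0.073 to 0.083 for wild-type replicates 4 to 6, so the match in background is close and not exact. Xist and the Y-linked genes Eif2s3y and Kdm5d read female on knockout replicates 1 and 2, male on knockout replicate 3 and male on wild-type replicates 1 to 3. In the second pair these genes read female on every array, transgenic and control alike. Sex is thus balanced in the change in NHD13 but not in the change in the knockout group. It therefore enters every difference between the 2 changes, and its part there was not tested. Knockout replicate 1 stood apart from its group: 592 genes differed at least 4-fold from the mean of the other 2 knockout arrays (312 above, 280 below), against 180 for replicate 2, 224 for replicate 3, and 20, 3 and 1 for wild-type replicates 1 to 3. Its correlation with replicates 2 and 3 over probes was 0.893 to 0.904, whereas those 2 correlated at 0.966 and the wild-type arrays at 0.965 to 0.987. Results are therefore given with all 6 arrays and without knockout replicate 1.

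Limma called 547 genes (5.65% of those tested) at an adjusted p under 0.05, 255 higher (2.64%) and 292 lower (3.02%) in the knockout group, and 2218 had an unadjusted p under 0.05. None of the 547 overlapped between the groups, while over all genes 1896 (19.6%) lay higher and 1235 (12.8%) lower without overlap. Leaving out knockout replicate 1 gave 707 genes (7.31%), 347 higher (3.59%) and 360 lower (3.72%). Of the genes, 431 were called in the same direction both ways, 116 only with all 6 arrays and 276 only without replicate 1. Counted by probe, 1397 were called with all 6 arrays (7.60%). The count rested on the wild-type arrays as well: it was 316 without knockout replicate 2, 286 without knockout replicate 3, 432 without wild-type replicate 1, 34 without wild-type replicate 2 and 23 without wild-type replicate 3. With sex as a covariate limma called 0 genes, the lowest adjusted p being 0.066, although 1233 had an unadjusted p under 0.05. That fit sets knockout replicate 3, the only male knockout array, alone against the male wild-type replicates 1 to 3. It therefore cannot tell which calls depend on sex. Every knockout array lay above all 6 wild-type arrays for 190 of the 255 higher genes and below all 6 for 209 of the 292 lower genes. The 2 wild-type sets, which read as opposite sexes, also differed from each other, at 535 genes (5.53%), and 137 of the 547 were among them.

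The median gene changed by 0.11 on the log2 scale, and by 0.53 when arrays were scaled to a common median in place of quantile normalization, which raised the share of higher calls among called probes to 81.7%, against 34.4%. Changes below are from quantile-normalized values and stand beside that median of 0.11.

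HOX genes and cofactors were read as a list, beside 2.64% of all genes called higher. Of 39 genes listed, 37 had a probe and 19 passed the detection filter, and 11 of the 19 were higher and 0 lower (10 and 0 without knockout replicate 1, 7 without knockout replicate 3, 5 without wild-type replicate 2, 4 without wild-type replicate 3), with a median change of 1.92. Hoxc6, Hoxa9, Hoxa2, Hoxb7 and Eya1 passed the filter only through the knockout arrays, where they are high, as wild-type replicates 1 to 3 did not detect them. The count of 11 and the median are therefore partly set by the filter. A further 8 listed genes, Hoxa10 and Hoxb8 among them, were detected on no array of the 6. With sex as a covariate 0 of the 19 were called after adjustment and 11 had an unadjusted p under 0.05, and the median was 1.97. That change rests on knockout replicate 3 alone. Under median scaling 12 rose, with a median of 2.14.

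Promoter windows of 3 of these HOXA-cluster genes, which lie on chromosome 6 and rose together, are shown as RefSeq gives them for GRCm38.p6, each running from 250 bases before the annotated start to 50 after it on the gene's own strand. Capitals mark a match to TGATTNAT, the composite letters that PBX and HOX proteins are known to read together, searched on both strands.
Hoxa2, chr6:52164782-52165081, minus strand: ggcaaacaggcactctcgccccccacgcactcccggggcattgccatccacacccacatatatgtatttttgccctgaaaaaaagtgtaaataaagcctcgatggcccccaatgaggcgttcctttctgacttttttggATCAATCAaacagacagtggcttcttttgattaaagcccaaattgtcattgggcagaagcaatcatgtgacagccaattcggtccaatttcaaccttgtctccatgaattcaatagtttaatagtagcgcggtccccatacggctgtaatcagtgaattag
Hoxa5, chr6:52204538-52204837, minus strand: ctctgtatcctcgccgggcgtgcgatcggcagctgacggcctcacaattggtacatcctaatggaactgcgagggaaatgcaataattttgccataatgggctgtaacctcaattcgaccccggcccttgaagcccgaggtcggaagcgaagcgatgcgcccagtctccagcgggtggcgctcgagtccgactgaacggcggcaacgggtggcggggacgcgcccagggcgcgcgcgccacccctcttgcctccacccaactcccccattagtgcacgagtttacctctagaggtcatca
Hoxa9, chr6:52227321-52227620, minus strand: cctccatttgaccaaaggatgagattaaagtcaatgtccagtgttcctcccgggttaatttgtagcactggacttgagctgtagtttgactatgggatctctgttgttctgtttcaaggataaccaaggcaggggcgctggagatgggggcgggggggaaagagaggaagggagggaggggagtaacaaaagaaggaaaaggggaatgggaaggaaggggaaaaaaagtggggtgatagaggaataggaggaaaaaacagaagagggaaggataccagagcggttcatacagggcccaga
Of the 11 called genes, 6 had a window in the table, and 1 of these, Hoxa2, held the motif, which is in 3.22% of 32851 windows of the same length. CCAATAAA, letters that HOXD13 is known to bind, was in 0 of the 6, against 1.12% of all windows. These are matches of letters only.

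Hoxc6 was at 8.26, 11.76 and 10.99 on the knockout arrays, against 5.16, 4.80 and 4.63 in wild type. It was undetected on all 3 wild-type arrays and at least 32.6-fold higher in the knockout group (log2 change 5.47, SE 0.86, adjusted p = 0.020), and knockout replicate 1 was the lowest of the 3. Without that array the change was 6.51 (adjusted p = 0.0020). Among the HOXA genes, Hoxa9, which drives self-renewal in many leukaemias, was at 8.29, 8.69 and 7.54 on the knockout arrays, against 4.77, 4.95 and 4.72 in wild type. That made it at least 7.27-fold higher (log2 change 3.36, adjusted p = 0.0069), and its second probe gave 3.45. Hoxa5 was at 10.40, 10.79 and 11.02 in knockout cells, against 7.45, 7.56 and 6.93 in wild type, a rise of 3.43 (SE 0.25, adjusted p = 0.0042). Hoxa7 was at 11.96, 12.55 and 12.24 in knockout cells, against 8.90, 9.76 and 9.12 in wild type (log2 change 2.99, adjusted p = 0.0069). Hoxa2 rose by 2.40 (adjusted p = 0.0042) and was undetected in wild type. For these 5 genes the lowest knockout array lay above the highest of all 6 wild-type arrays.

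In the HOXB cluster, Hoxb7 was at 7.03, 8.32 and 8.19 on the knockout arrays, against 4.93, 4.61 and 4.54 in wild type, at least 5.81-fold higher (log2 change 3.15, adjusted p = 0.0093). Hoxb5 rose by 2.39 (adjusted p = 0.026) and Hoxb4, which expands blood stem cells when forced, by 1.92 (adjusted p = 0.034). The 3 knockout arrays lay above the 3 wild-type arrays for each of these genes. For Hoxb5 and Hoxb7 knockout replicate 1 was the lowest of its group.

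Several cofactors rose as well. Pbx3, a TALE homeodomain protein that binds DNA with HOX proteins, was at 9.12, 9.46 and 8.92 in knockout cells, against 5.41, 4.72 and 4.95 in wild type. Its rise of 4.14 (SE 0.25, adjusted p = 0.0042) was called on both of its probes and under each of the 6 leave-one-out settings. Eya1, a phosphatase and transcriptional co-activator, was at 7.25, 8.26 and 8.41 in knockout cells, against 4.99, 4.94 and 4.56 in wild type, at least 6.33-fold higher (adjusted p = 0.0081). Pbx2 rose by 1.02 (adjusted p = 0.049), but this call was lost without any single array, and 2 other probes of the gene were not called. Meis1, another TALE cofactor, was at 9.57, 5.21 and 6.60 in knockout cells, against 5.57, 5.42 and 4.97 in wild type (adjusted p = 0.31). Knockout replicates 1 and 3 lay above wild type and replicate 2 did not.

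**Figure D1:**
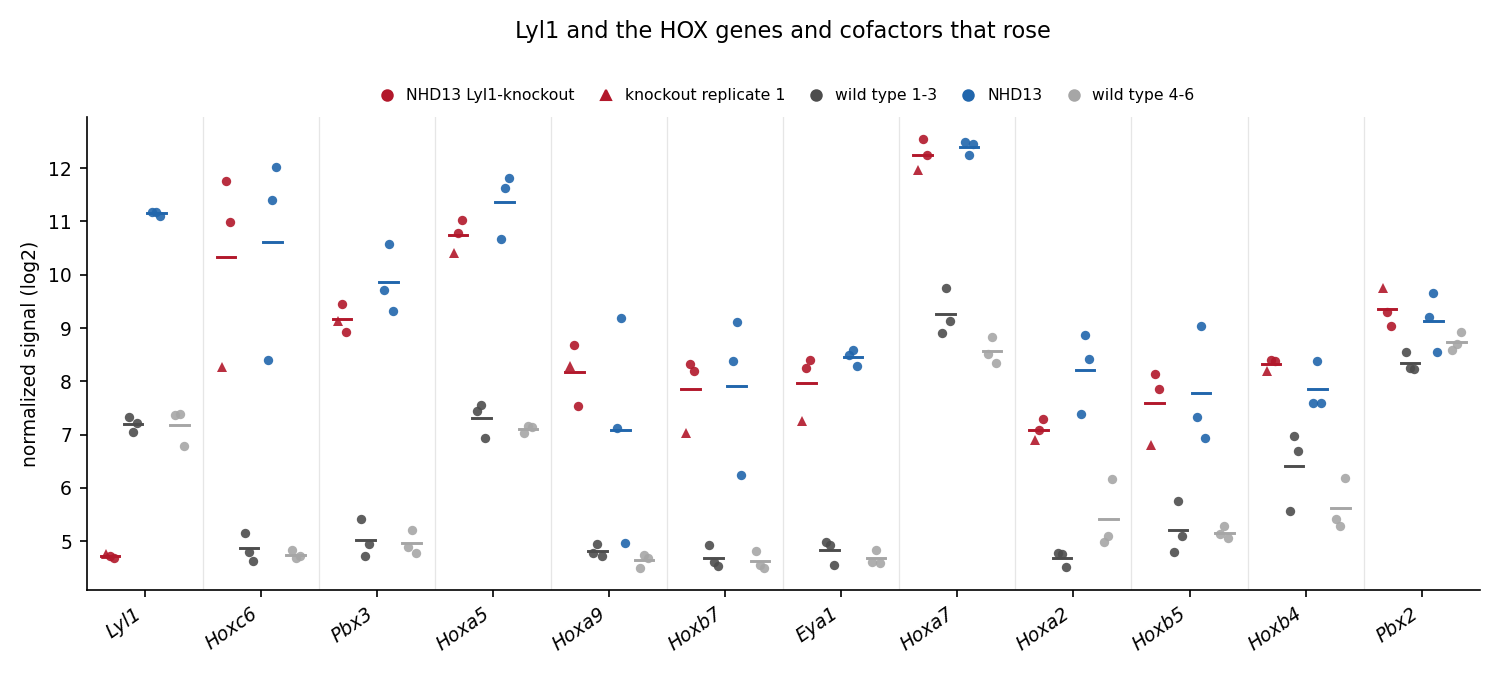
Log2 normalized signal of Lyl1 and of the 11 called HOX genes and cofactors on each array, grouped from left to right as NHD13 Lyl1-knockout (triangle for replicate 1), wild type 1-3, NHD13 and wild type 4-6, with a bar at each group's mean. Lyl1 is lowest in the knockout group and highest in NHD13, whereas Hoxc6, Pbx3 and Hoxa5 are high in both transgenic groups.

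The same 19 genes were then compared with their change in NHD13, which had its own wild-type controls. NHD13 against its controls gave 2156 called genes (22.3%). In NHD13 10 of the 19 were called higher and 1 lower (over all genes 9.67% were higher and 12.6% lower), with a median of 2.22. The difference between the 2 changes was called for 0 of the 19, with a median of -0.13, while 1551 of all genes (16.0%) were called for a difference. Per gene it ran from -0.84 for Hoxa7 (adjusted p = 0.11) to 1.89 for Meis1 (adjusted p = 0.26). A p that misses the threshold does not show equal changes, and a second probe of Hoxa2 was called at -1.93 (adjusted p = 0.039). The 19 genes had also been filtered on the knockout arrays and wild-type replicates 1 to 3 alone. A gene detected only in NHD13 could therefore not be counted as a difference. Hoxa3 was left out in this way, although 1 of its probes was detected on 3 NHD13 arrays and 1 knockout array. Hoxa5 was at 10.67, 11.63 and 11.80 in NHD13, and Pbx3 at 9.71, 10.57 and 9.32, near or above their levels in the knockout arrays.

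Outside the HOX family, the largest rise among called genes was that of Igf2, the imprinted gene for a fetal growth factor. It was at 13.89, 11.003 and 13.40 on the knockout arrays, against 6.20, 6.08 and 6.39 in wild type, a log2 change of 6.54 (SE 0.72, adjusted p = 0.0084). Without knockout replicate 1 the change was 5.98 (adjusted p = 0.0083), and the call was lost without wild-type replicate 2 or 3, where the highest adjusted p was 0.057. NHD13 arrays had 4.94, 5.90 and 4.93, and the difference from NHD13 was 7.57 (adjusted p = 0.0010).

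Both other imprinted genes among the 12 largest rises encode growth regulators. Cdkn1c, the cyclin-dependent kinase inhibitor p57, was at 8.19, 9.34 and 8.67 in knockout cells, against 5.70, 5.76 and 5.57 in wild type (log2 change 3.06, adjusted p = 0.0073), and differed from NHD13 by 2.61 (adjusted p = 0.028). Grb10, an adaptor that restrains insulin and growth factor receptors, was at 9.53, 6.94 and 7.24, against 4.71, 5.14 and 4.84 in wild type, at least 6.03-fold higher (adjusted p = 0.048), and its call was kept in only 1 of the 6 leave-one-out settings. Of these, Cdkn1c had knockout replicate 1 lowest and Grb10 had it highest.

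Genes of adhesion and growth-factor signalling were also among the 12. Neo1, a receptor for netrins and repulsive guidance molecules, was at 7.26, 8.69 and 8.68 in knockout cells, against 4.54, 4.62 and 4.69 in wild type. It was undetected in wild type and at least 7.47-fold higher (adjusted p = 0.0088), and in NHD13 it stayed at 4.49, 4.77 and 4.79, a difference of 3.63 (adjusted p = 0.0015). Itga9, an integrin alpha chain, rose by 3.09 (adjusted p = 0.0071) and Pdgfa, a platelet-derived growth factor chain, by 3.23 (adjusted p = 0.016). For all 12 genes the knockout arrays lay above all 6 wild-type arrays, as they did for 190 of the 255 called higher genes. All 12 were also called without knockout replicate 1, as were 431 of the 547 called genes. The 12 had been picked as called and not overlapping with wild-type replicates 1 to 3, so only replicates 4 to 6 were new here. Neo1 and Grb10 passed the filter only through the knockout arrays.

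Among the 12 largest falls were 5 genes of antigen presentation on MHC class II, named from their rank. H2-Eb1, an MHC class II beta chain, was at 7.84, 7.85 and 8.42 in knockout cells, against 11.71, 11.48 and 11.64 in wild-type replicates 1 to 3, and fell by 3.58 on the log2 scale (SE 0.21, adjusted p = 0.0042). Cd74, the invariant chain that guides class II molecules, was at 10.26, 9.49 and 10.07, against 13.05, 12.85 and 13.05 (log2 change -3.04, adjusted p = 0.0042), and all 3 of its probes were called. H2-Ab1 fell by 3.14 (adjusted p = 0.0092) and H2-Aa by 3.13 (adjusted p = 0.0042). Ciita, the master activator of class II transcription, was at 5.36, 4.77 and 4.93, against 8.22, 7.75 and 8.16, undetected on the knockout arrays and at least 6.24-fold lower (adjusted p = 0.0042).

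The size of these falls depended on which wild-type arrays were used, and the 2 wild-type sets read as opposite sexes. Wild-type replicates 4 to 6 had H2-Eb1 at 9.35, 10.28 and 9.67 and H2-Aa at 8.13, 9.17 and 8.68, lower than wild-type replicates 1 to 3. The knockout arrays lay below all 6 wild-type arrays for H2-Eb1, H2-Ab1 and Cd74 and overlapped with replicates 4 to 6 for H2-Aa and Ciita. In NHD13 none of these 5 was called against its controls, with changes of -0.65 to -0.10. H2-Aa had 7.19, 9.10 and 7.74 in NHD13 cells, close to its level in the knockout group.

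Class II genes are carried by dendritic and B cells, whose markers were read next, beside 2.64% of all genes called higher and 3.02% called lower. Of 9 measured dendritic-cell genes 5 were lower and 0 higher (6 and 0 without knockout replicate 1, 3 and 0 without wild-type replicate 2 or 3, 4 and 0 against all 6 wild-type arrays, 5 lower and 2 higher under median scaling), with a median of -2.80. The 5 are Siglech and the class II genes H2-Aa, H2-Ab1, H2-Eb1 and Cd74 given above, while Irf8, Tcf4, Bst2 and Cst3 were not called. Siglech, a receptor of plasmacytoid dendritic cells, was at 4.89, 5.98 and 5.52 in knockout cells, against 7.75, 8.58 and 8.45 in wild type (log2 change -2.80, adjusted p = 0.011). The summed linear signal of the 9 genes was 17278, 10094 and 10822 on the knockout arrays, against 27362, 24282 and 27303 in wild-type replicates 1 to 3 and 10436 to 13681 in wild-type replicates 4 to 6. Of 6 measured B-cell genes 3 were lower (2 without knockout replicate 1, 0 without knockout replicate 2 or 3 or wild-type replicate 2 or 3, 2 lower and 1 higher under median scaling), namely Cd79b by 1.36, Ms4a1 by 1.41 and Blnk by 1.29. The median was -1.10, and against all 6 wild-type arrays 0 of the 6 were lower, with a median of -0.52. Their sum was 1910, 1019 and 950, against 2259, 2186 and 3237 in wild-type replicates 1 to 3 and 1199 to 1482 in replicates 4 to 6. The part that rare dendritic or B cells in the sort play in these falls was not tested.

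The largest fall among called genes with a name was that of Fcmr, which was not in the B-cell list. Fcmr, the Fc receptor for IgM, was at 4.59, 4.97 and 7.41 in knockout cells, against 10.76, 10.86 and 11.19 in wild type (log2 change -5.28, SE 0.72, adjusted p = 0.014), and stood at 7.93, 8.86 and 7.91 in wild-type replicates 4 to 6. Fcrla, an Fc receptor-like protein of B cells that was not in that list either, fell by 3.67 (adjusted p = 0.0071). Other large falls were those of the sodium channel subunit Scn4b (3.35), the lysophospholipid receptor P2ry10 (2.99), the chromatin ATPase Atad2 (2.98), the purine synthesis enzyme Adss (2.92) and the orphan receptor Gprc5b (2.89), with adjusted p between 0.0065 and 0.013. Of the 12 largest falls, 9 had every knockout array below all 6 wild-type arrays, the exceptions being H2-Aa, Ciita and P2ry10, and all 12 were called without knockout replicate 1. These 12 had also been picked as called and not overlapping with wild-type replicates 1 to 3. Over all 292 called lower genes, 209 lay below all 6 wild-type arrays.

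**Figure D2:**
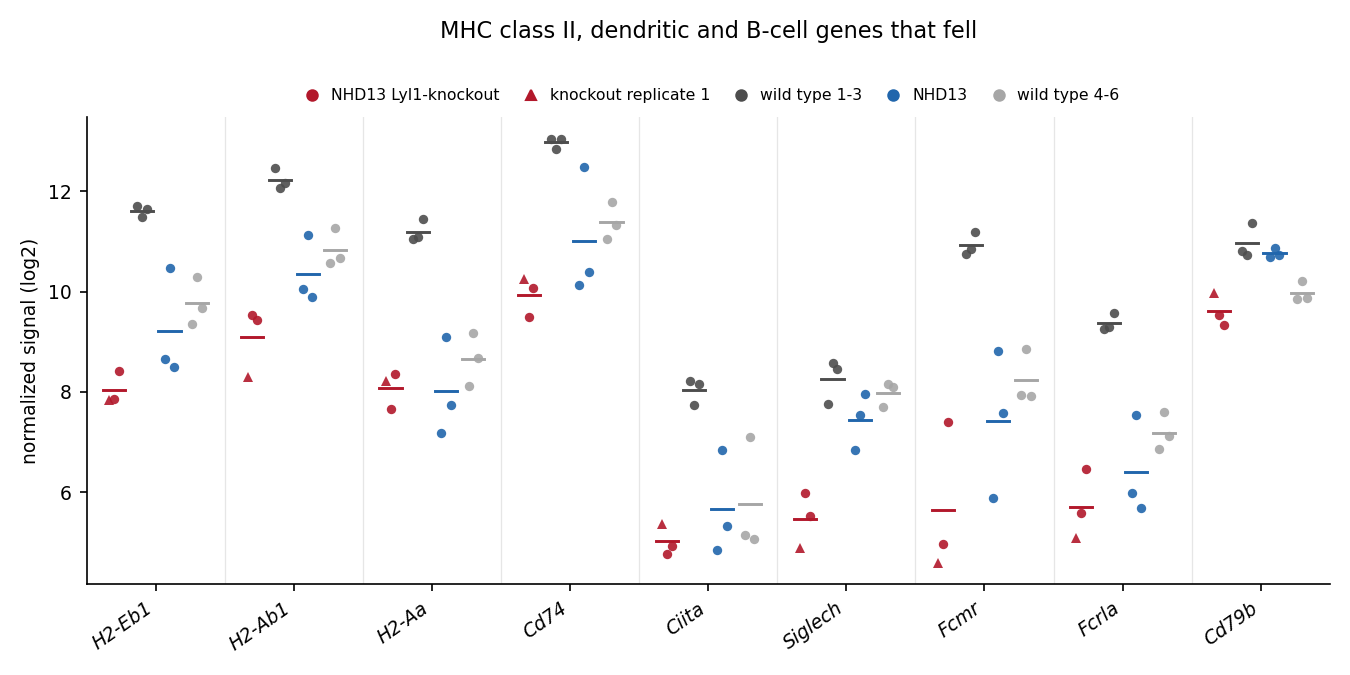
Log2 normalized signal of called MHC class II, dendritic-cell and B-cell genes on each array, with groups from left to right as NHD13 Lyl1-knockout (triangle for replicate 1), wild type 1-3, NHD13 and wild type 4-6 and a bar at each mean. The knockout arrays lie below wild type 1-3 for every gene shown, while wild type 4-6 overlaps the knockout arrays for H2-Aa, Ciita and Cd79b.

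Other regulators moved singly. Bmi1, of Polycomb complex 1, fell by 2.16 (adjusted p = 0.0065) and Ezh2, the methyltransferase of Polycomb complex 2, by 2.27 (adjusted p = 0.047, and 0.068 without knockout replicate 1). They were the 2 called of 18 measured chromatin genes, beside 3.02% of all genes called lower. Ptprc, which encodes CD45, was at 6.95, 7.20 and 8.02, against 9.39, 9.43 and 9.34, and fell by 2.00 (adjusted p = 0.016), with NHD13 at 7.97 to 8.51 and wild-type replicates 4 to 6 at 7.98 to 8.75. Gfi1b, a repressor used in erythroid and megakaryocyte progenitors, was at 9.04, 6.88 and 7.28, against 4.65, 4.90 and 5.17, undetected in wild type and at least 5.37-fold higher (adjusted p = 0.035). Fli1, an ETS factor, fell by 0.93 (adjusted p = 0.026), and Spib, an ETS factor of plasmacytoid and early T cells, by 1.55 (adjusted p = 0.027).

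Knockout replicate 1 differed from replicates 2 and 3 in lineage genes, given here as description without a test. All 12 measured myeloid genes were at least 4-fold higher on replicate 1 than on the mean of the other 2, beside 312 of all 9677 genes. Mpo, the granule enzyme myeloperoxidase, was at 14.28 on replicate 1 and at 5.27 and 4.64 on replicates 2 and 3, against 7.90, 8.001 and 8.08 in wild type. S100a8, a calcium-binding protein of neutrophils, was at 13.76, 4.67 and 4.64, against 9.28, 10.19 and 8.02 in wild type. The summed linear signal of the 12 genes was 54929, 557 and 657 on the knockout arrays, against 2956, 4057 and 2912 in wild-type replicates 1 to 3. Replicates 2 and 3 thus lay below wild type where replicate 1 lay far above it.

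Further myeloid genes that did not pass the filter repeated this. Prtn3, Elane and Ctsg, proteases of granulocyte precursors, were at 13.40, 11.52 and 13.36 on knockout replicate 1, and each was at or below 4.90 on the other 2. The stem and progenitor factors Gata2, Spi1 and Tal1 were at 9.99, 9.41 and 8.18 on replicate 1 and undetected on replicates 2 and 3. All 3 NHD13 arrays also detected Gata2 (7.27, 7.98 and 10.53), Spi1 and Ctsg, while Tal1, Elane and Prtn3 were each detected on 1 of them. Erg, Mycn and Flt3, which are in the same list and also failed the filter, were detected on no knockout array, replicate 1 included. Among genes that passed the filter, the 10 highest on replicate 1 beside the others were Mpo, S100a8, S100a9, Sirpa, Tgfbi, Ccl9, Lyz2, Ifitm6, Lmo2 and Lyz1. Within NHD13 the myeloid sum also varied, between 1768 and 42614.

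T-lineage genes took the opposite course on that array. Of 19 measured genes of the DN3 stage and pre-T cell receptor, 12 were at least 4-fold lower on replicate 1 and 0 higher. Over all 9677 genes 280 were lower and 312 higher by that measure. Rag1 was at 8.22 on replicate 1 and at 11.49 and 12.13 on replicates 2 and 3, against 10.87, 11.20 and 11.04 in wild type. Cd3e, a chain of the CD3 complex, was at 9.58, 13.15 and 13.09, against 13.38, 13.38 and 13.49, and Dntt, the terminal transferase, at 5.35, 11.60 and 11.24, against 12.12, 12.56 and 12.34. The list's summed signal was 10156, 61908 and 61845 on the knockout arrays, against 68994, 69848 and 70605 in wild type, so only replicate 1 lay far below wild type. Among commitment factors Bcl11b, which is required for T-lineage commitment, was at 10.69, 13.08 and 12.19, against 13.39, 13.44 and 13.43, and Lef1 at 4.73, 9.97 and 9.44, against 10.58, 10.70 and 10.38.

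Thy1, the pan-thymocyte surface marker, was at 12.39 on replicate 1 and at 14.34 and 14.30 on the others, against 14.26, 13.93 and 14.02 in wild type. Cd8a, one of the markers that the sort selects against, was detected on 0 of the 6 arrays, and Cd4 on 1 knockout and 1 wild-type array by 1 of its 2 probes. Cd8b1, the other CD8 chain, was detected on all 6 arrays by 1 probe, at 12.49, 11.93 and 11.97 in knockout cells, against 12.04, 11.56 and 11.31 in wild type. A second Cd8b1 probe disagreed with it on replicate 1, at 4.80, 12.30 and 11.25 in knockout cells, against 12.63, 13.13 and 12.90 in wild type. The remaining probe was also low on replicate 1, at 4.77. NHD13 arrays showed the same split, with the second probe at 6.94, 7.60 and 6.03 and the remaining probe undetected on all 3. In wild-type replicates 4 to 6 the second probe was at 12.39, 12.37 and 12.68. Among genes that passed the filter, the 10 lowest on replicate 1 beside the others, unnamed transcripts passed over, were Arsi, Xlr4a, Trbv13-1, Dntt, Cd2, Camk4, Hivep3, Cldn10, Xcl1 and Zap70. By these markers replicates 2 and 3 carried T-lineage signal, while replicate 1 had low T-lineage and high myeloid signal. Replicates 2 and 3 were not level with wild type. Both lay below all of wild-type replicates 1 to 3 for 9 of the 19 DN3-stage genes and 8 of 14 measured commitment factors. The share of all genes doing so was not counted.

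**Figure D3:**
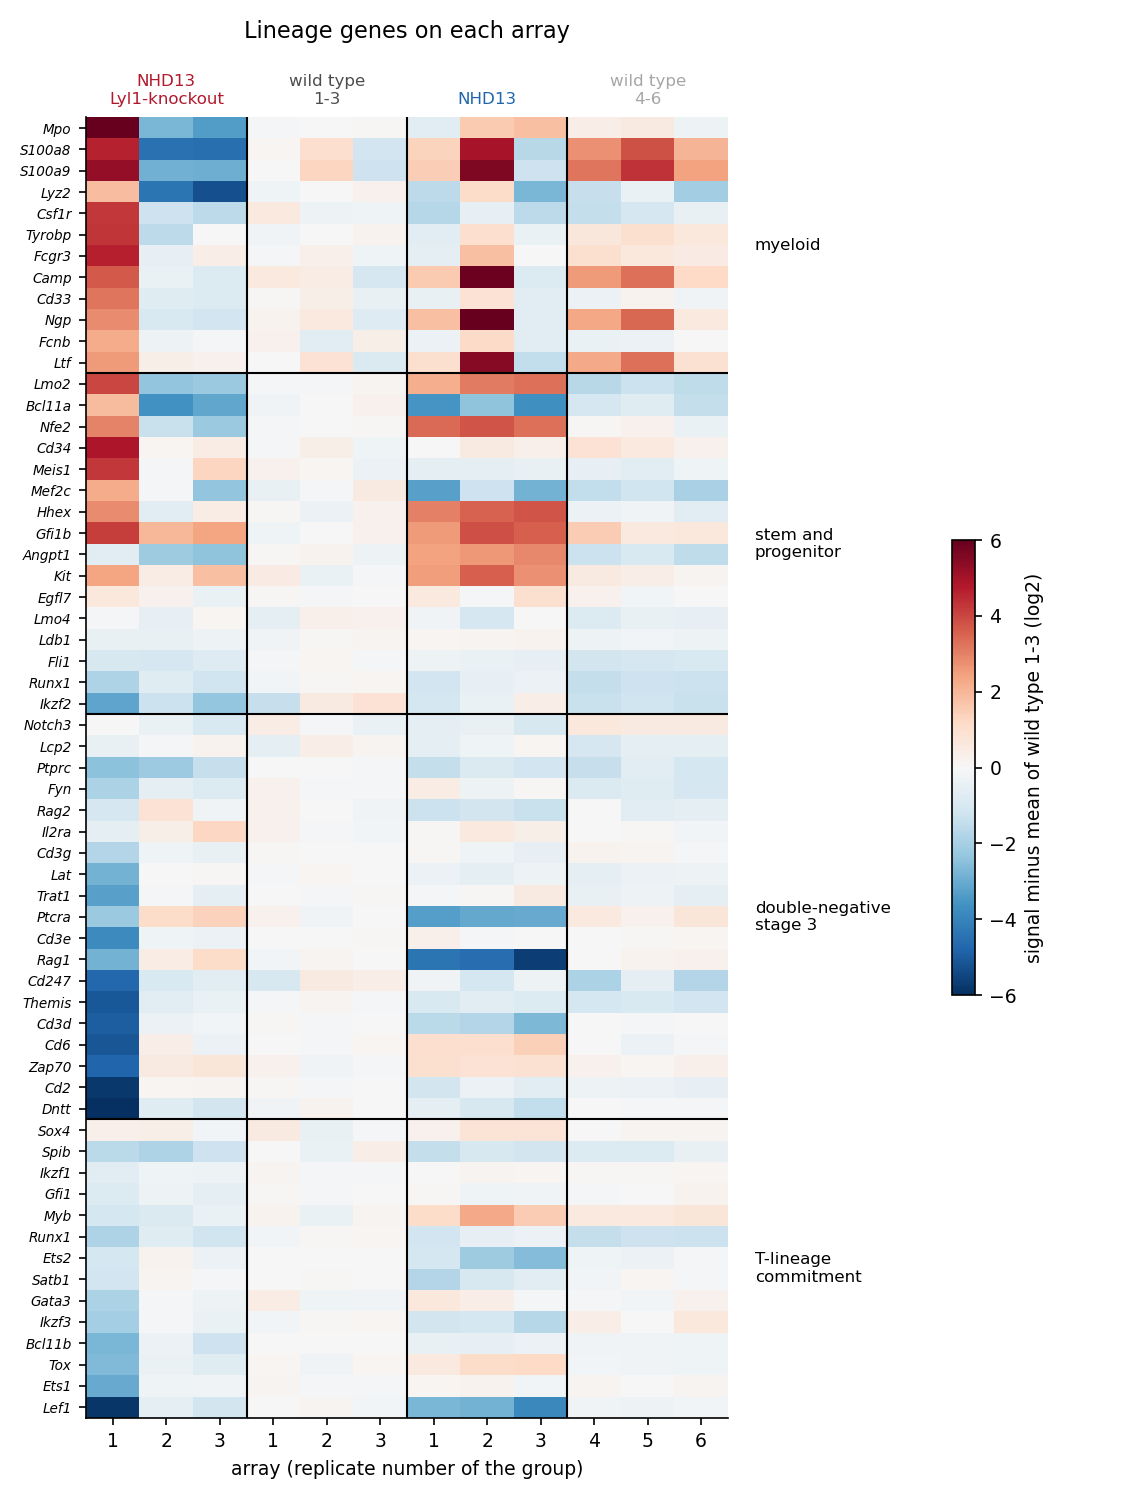
Heat map of lineage genes (rows, with list names at the right) on the 12 arrays (columns, by group), coloured by log2 signal minus the mean of wild type 1-3, with the colour scale ending at -6 and 6. Knockout replicate 1 is red for all 12 myeloid genes and blue for most DN3-stage genes, unlike replicates 2 and 3.

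Stem and progenitor genes divided the group in the same way. Of 16 measured, 7 were at least 4-fold higher on replicate 1 (Lmo2, Meis1, Hhex, Cd34, Bcl11a, Mef2c and Nfe2), beside 312 of all 9677 genes. Lmo2, the LIM protein that bridges LYL1 or TAL1 to GATA factors, was at 12.60, 6.21 and 6.37 in knockout cells, against 8.48, 8.53 and 8.73 in wild type, and at 10.75, 11.69 and 11.87 in NHD13. With all 6 arrays 1 of the 16 was called higher and 1 lower (over all genes 2.64% and 3.02%), with a median of -0.17 (0.36 under median scaling). Without replicate 1, 1 was higher and 6 lower (over all genes 3.59% and 3.72%), with a median of -0.64. In that fit Lmo2 fell by 2.29 (adjusted p = 0.0041), Bcl11a by 3.37 (adjusted p = 0.0037) and the erythroid factor Nfe2 by 1.79 (adjusted p = 0.019). Replicate 1 lay above wild-type replicates 1 to 3 for 10 of the 16 genes, and replicates 2 and 3 both lay below them for 7. The shares of all genes doing the same were not counted, so these 2 counts are description only.

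The differences from NHD13 showed the same dependence. Lmo2 differed from NHD13 by -4.53 with all arrays (adjusted p = 0.11) and by -6.64 without replicate 1 (adjusted p = 1.8e-05). Hhex, a homeobox gene of progenitors that LYL1 and LMO2 are known to act through, was at 11.40, 7.91 and 9.02 in knockout cells and at 11.61, 12.10 and 12.34 in NHD13. Its difference was -2.98 (adjusted p = 0.052) with all arrays and -3.96 (adjusted p = 0.00073) without replicate 1. Angpt1, a ligand for the TIE2 receptor, was at 6.71, 5.21 and 4.96, against 9.79, 9.98 and 10.22 in NHD13, and its difference of -5.60 was called either way (adjusted p = 0.00051 with all arrays). Over the 16 genes 0 were called higher and 5 lower in this difference (over all genes 9.86% and 6.17%). Without replicate 1, 8 were lower, beside 8.31% of all genes.

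**Figure D4:**
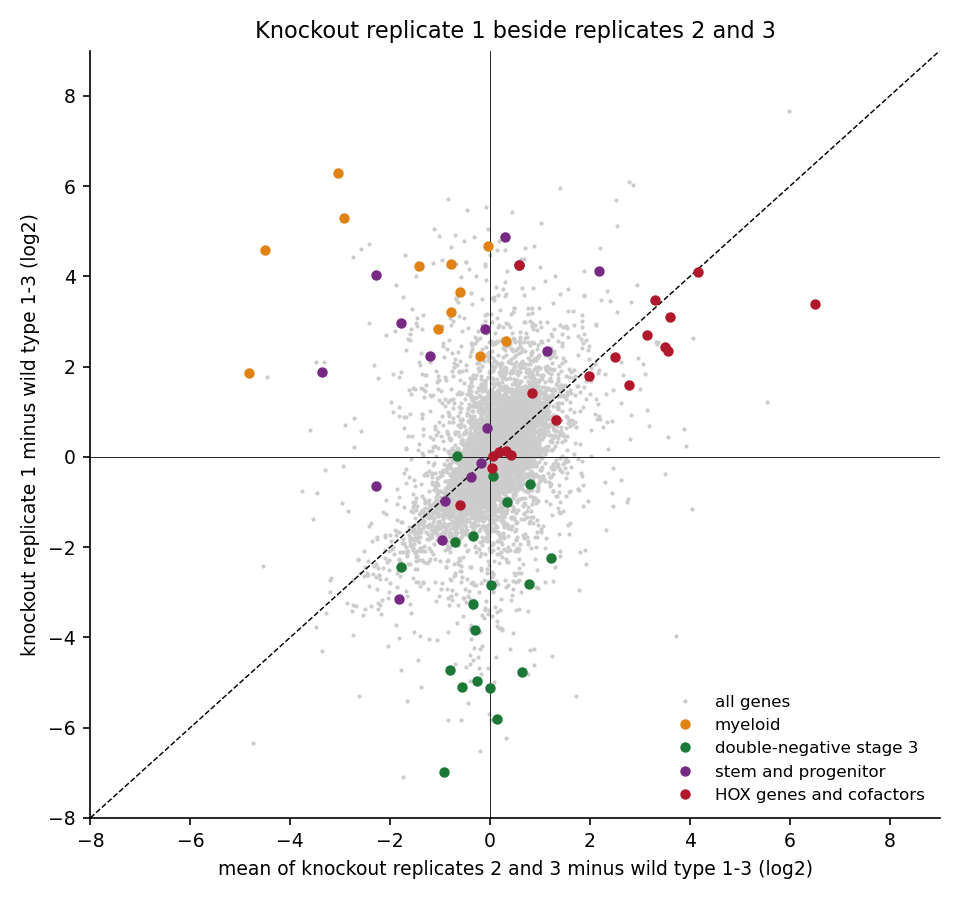
Each point is a gene, with the mean of knockout replicates 2 and 3 minus the mean of wild type 1-3 on the x axis and knockout replicate 1 minus the same mean on the y axis (log2). Most HOX genes and cofactors lie near the dashed line of equality, with Meis1 above and Hoxc6 below it, whereas all 12 myeloid genes lie above it and most DN3-stage genes below.

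Of the DN3-stage genes, Rag1 and Ptcra were lower in NHD13 than in its controls and were not called in the knockout group. Rag1 was at 6.68, 6.48 and 5.38 in NHD13, against 11.07, 11.23 and 11.31 in its controls, and the change in the knockout group minus the change in NHD13 was 4.60 (adjusted p = 0.021) with all arrays and 5.80 (adjusted p = 9.7e-05) without knockout replicate 1. Ptcra was at 6.61, 9.93 and 10.21 in knockout cells, against 9.10, 8.62 and 8.81 in wild type, and at 5.54, 5.80 and 5.81 in NHD13. Its difference was 3.73 (adjusted p = 0.033), and 4.88 without replicate 1, where Ptcra was also called higher than wild type (log2 change 1.23, adjusted p = 0.026). Over the list of 19 genes, these 2 were the only ones called higher for the difference, and 2 others were called lower, with a median of -1.50. Over all genes 9.86% were higher and 6.17% lower, so the count of higher genes was near that share. Without knockout replicate 1, 3 were higher and 5 lower (over all genes 11.8% and 8.31%), with a median of -0.03.

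Of 26 measured cell cycle genes, 0 were higher and 1 lower in the knockout group, a share near the 2.64% and 3.02% of all genes (Ccne2, log2 change -2.62, adjusted p = 0.022), with a median of -0.04, which became 0.55 with 5 higher and 1 lower under median scaling. In NHD13 all 26 were called lower, beside 12.6% of all genes, with a median of -1.48. The difference was called higher for 9 of the 26 and lower for 0 (over all genes 9.86% and 6.17%), with a median of 1.34, among them Aurkb (2.47), Ccne1 (2.21) and Kif11 (2.07). That count of 9 was 17 under median scaling and 17 with the knockout group set directly against NHD13, 7 without knockout replicate 1, 4 without knockout replicate 2, 21 without NHD13 replicate 1, 2 to 5 without the other NHD13 arrays and 1 to 7 without single wild-type arrays, lowest without wild-type replicate 6.

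Ribosome biogenesis and MYC-target genes gave 0 called of 12 in the knockout group, with a median of -0.11 (0.37 with 4 higher under median scaling). In NHD13 8 were lower, beside 12.6% of all genes. The difference was higher for 4 of the 12, Nop58, Odc1, Nolc1 and Polr1b, beside 9.86% of all genes. It was higher for 2 of the 12 without wild-type replicate 3, 4 or 6. Interferon-response genes showed the reverse. Of 13 measured, 1 was higher in the knockout group, beside 2.64% of all genes, and the median was 0.57. This was Irf7, at 7.97, 7.58 and 8.69 in knockout cells, against 6.63, 6.33 and 6.24 in wild type (log2 change 1.68, adjusted p = 0.029). Without knockout replicate 1, 4 were higher, beside 3.59% of all genes. The mean deviation from wild type over the 13 was 0.17, 0.41 and 1.45 on knockout replicates 1 to 3, highest on replicate 3, the male array of the group.

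In NHD13 10 of the 13 interferon genes were higher, beside 9.67% of all genes, with a median of 2.61. The difference was lower for 4 of the 13 and higher for 0 (over all genes 6.17% and 9.86%), with a median of -1.62. It was lower for 2 without NHD13 replicate 2, knockout replicate 2 or wild-type replicate 2, 3, 4 or 6, and for 10 without knockout replicate 3. Usp18, which damps interferon signalling, was at 8.97, 9.36 and 10.31 in knockout cells and at 12.48, 12.26 and 11.20 in NHD13 (difference -2.37, adjusted p = 0.015). Irf9, part of the interferon-stimulated transcription complex, differed by -1.75 (adjusted p = 0.0056).

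**Figure D5:**
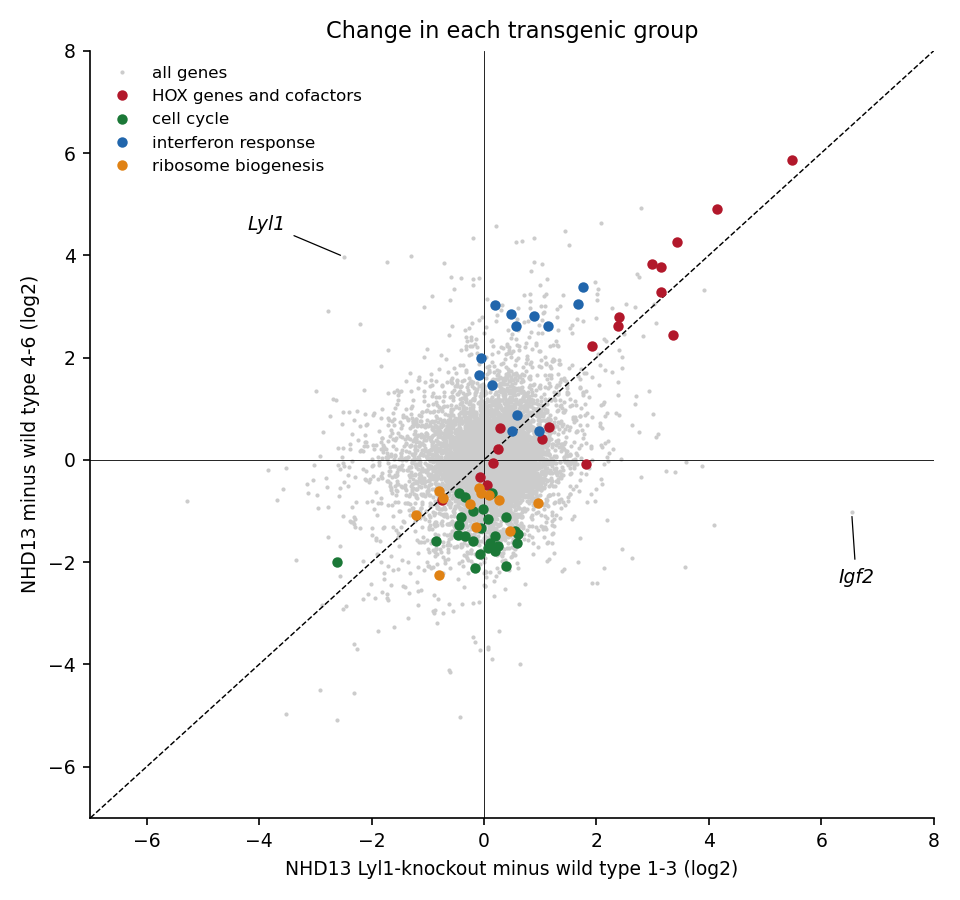
Each point is a gene, with its change in NHD13 Lyl1-knockout against wild type 1-3 on the x axis and its change in NHD13 against wild type 4-6 on the y axis (log2), and no array shared by the axes. Most called HOX genes and cofactors lie along the dashed line of equality, cell cycle genes lie near 0 on the x axis and below 0 on the y axis, and interferon genes lie higher on the y axis.

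Over all genes, 68 of the 255 called higher in the knockout group (26.7%) were also called higher in NHD13, where they made up 7.26% of 936 genes. Of the 292 called lower, 41 (14.0%) were also lower in NHD13, 3.36% of 1220. The shares of all genes called in NHD13 were 9.67% higher and 12.6% lower, so the overlap of the lower genes was near the background. The difference between the 2 changes was higher for 954 genes (9.86%) and lower for 597 (6.17%), and it was called for 115 of the 255 and 181 of the 292. Those genes were picked on the change in the knockout group, which enters this contrast, so their shares are partly set by that choice. Without knockout replicate 1 the difference was called for 1949 genes (20.1%), 1145 higher (11.8%) and 804 lower (8.31%). By probe the difference was called for 3113 (16.9%).

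The genes beside Lyl1 on chromosome 8 were read after values had been seen, in gene order only. Among the 20 protein-coding genes on each side, 30 were measured and 5 were called (16.7%, against 5.65% of all genes), 4 higher and 1 lower. Calr, the endoplasmic reticulum chaperone calreticulin, lies 5 genes away and was at 7.72, 7.48 and 7.66 in knockout cells, against 9.18, 9.54 and 9.64 in wild type (log2 change -1.84, adjusted p = 0.0074). Gadd45gip1, a mitochondrial ribosome protein, lies 3 genes away and was at 7.09, 6.99 and 6.99, against 5.34, 5.57 and 5.74 (log2 change 1.48, adjusted p = 0.0093). Podnl1, Farsa and Rnaseh2a were the other called genes, with rises of 2.39, 1.42 and 0.88.

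Farther out on the same chromosome, 2 genes had probes that disagreed. For Zfp330, 40 genes away, 1 probe was at 5.21, 5.01 and 4.65 in knockout cells, against 11.19, 11.56 and 11.29 in wild type, the lowest change of all 18391 probes (-6.39, adjusted p = 0.00063), and stood at 10.75 to 11.13 in NHD13. Its other probe changed by -0.74 (adjusted p = 0.037). For Man2b1, 26 genes away, 1 probe changed by -2.86 (adjusted p = 0.027) and another by 0.63 (adjusted p = 0.38). Whether these probes read a difference in transcript level or in sequence was not tested.

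The other lists held few calls, beside 2.64% of all genes called higher and 3.02% called lower. Notch genes numbered 11 measured with 1 higher, Maml1 (3 without knockout replicate 1, Dtx1, Heyl and Ptcra), BCL2-family genes 10 with 1 higher, Bak1, G1 regulators 13 with 1 higher, Cdkn1c, and commitment factors 14 with 1 lower, Spib. Glycolysis genes had 1 lower of 12, Pfkp, stress genes 1 lower of 11, Hsp90aa1, and DN3-stage genes 1 lower of 19, Ptprc. E proteins and ID factors (6), later thymocyte genes (11), p53 targets (10), cytokine receptors (9), NK and innate lymphoid genes (10), gamma delta genes (5), erythroid genes (3), megakaryocyte and mast genes (2) and stromal genes (2) had 0 called. Within these lists replicates disagreed. Klra3, an NK receptor, was at 4.55, 8.18 and 11.65 in knockout cells, against 11.63, 11.54 and 11.79 in wild type.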

How the data were processed

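Total RNA from sorted CD4-CD8 double-negative thymocytes was hybridised to 1-colour Illumina MouseWG-6 v2.0 arrays. The deposited intensity of each probe, unnormalized, and its detection p-value were taken from the authors' tables, and the deposited log2 table was used as an alternative. The submitters' processing notes name BeadStudio and limma without a role for either, and the steps behind the log2 table are not given in the sources used here. Intensities of all 12 arrays were background-corrected and quantile-normalized with limma's neqc (R 4.3.3, limma 3.58.1, offset 16), which inferred the negative controls' mean and variance from the detection p-values.

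Probes with detection p under 0.05 on at least 3 of the 6 arrays were kept, 18391 of 45281. A gene was read by its kept probe with the highest mean, which gave 9677 genes. GEO's platform annotation gave 34885 probes 1 symbol, 18 several and 10378 none. Differences were tested with lmFit and eBayes, with Benjamini-Hochberg adjustment over all probes kept, and called at an adjusted p under 0.05. The difference from NHD13 was a contrast over 12 arrays in 4 groups. Where a gene was undetected on all arrays of a group, the fold is a lower bound against, on each array, the higher of the lowest signal among detected probes and the gene's own signal. The scripts were tested on simulated data.

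Genes named are Lyl1, the 12 largest non-overlapping called changes in each direction, called members of 27 lists, the 10 genes in each direction that set knockout replicate 1 apart, and the 8 largest differences from NHD13 in each direction. Unnamed transcripts were passed over. The members and lists were chosen with earlier results of these data known. The number of arrays, 3 in each group, limits the precision.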

Additional observations from a re-analysis of the deposited data

Results flagged for a closer look

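The change in the knockout group differed from the change in NHD13 at 3113 probes by the limma contrast over 12 arrays. The result is listed because the interaction term itself passed the adjusted threshold, and so are the largest differences, given on the log2 scale as the change in the knockout group minus the change in NHD13. On the positive side were Igf2 (7.57), the metallothionein Mt1 (5.66), Scara3 (5.37), the neuropilin Nrp1 (4.63), the recombinase Rag1 (4.60), the collagen Col15a1 (4.55), Cenpv (4.26) and the secreted hormone Stc1 (4.19). On the negative side were Lyl1 (-6.45), the actin-severing Scin (-5.67), Angpt1 (-5.60), H2-Ob (-5.29), the mast cell protease Cpa3 (-4.85), Trgv5 (-4.57), Fcmr (-4.47) and the globin Hba-a1 (-4.37). These values were set apart for their size among called genes.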

How the results depend on the processing

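The 547 genes called against wild type (1397 probes) stayed within 1.5 times under the authors' deposited table, a detection p under 0.01, no filter on dim probes and normalization of the 6 arrays alone, with 455 to 542 genes. Median scaling gave 3025 genes and 5313 probes, of which 4343 were higher. A fit over all 12 arrays gave 1306 genes and 3022 probes, all 6 wild-type arrays 944 and 2117, and array weights 1430 and 3331. With sex as a covariate limma called 0 genes and 1 probe, where 1233 genes had an unadjusted p under 0.05. In that fit the change rests on knockout replicate 3 alone, so the dependence of the calls on sex cannot be read from it. Leaving out single arrays gave 23 to 707 genes and 83 to 1586 probes, fewest without wild-type replicate 3 (23 genes) or 2 (34 genes). Whether the replicate numbers pair the samples cannot be told from these arrays, as each deviation is taken from a mean of only 3. Same-numbered arrays correlated in their deviations at 0.077, 0.019 and 0.076, and differently numbered ones at -0.080 to 0.042. With the number as a block 163 genes and 463 probes were called.

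The 3113 probes called for the difference from NHD13 ranged from 1350 to 4202 without single arrays, the alternatives that leave out NHD13 arrays or wild-type replicates 4 to 6 having been chosen after seeing the data. Setting the knockout group directly against NHD13 gave 5344, and there H2-Aa turned to 0.062 (adjusted p = 0.93), against -2.48 for the difference. For all of these the cause was not tested. Probes near background are limited by signal, and folds of undetected genes are lower bounds.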
